A study of Mus musculus with 20 samples.

Results

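The genes described here encode the enzymes that make superoxide, hydrogen peroxide and nitric oxide in the mouse trachea: Cybb, Cyba, Ncf1 and Ncf4 of the phagocyte NADPH oxidase, the related oxidase Nox4, the dual oxidases Duox1 and Duox2 of surface epithelia, and the inducible nitric oxide synthase Nos2. Every probe on the array that carried 1 of these 8 gene names and was not a control was taken, which gave 11 of the 41174 probes. Each gene had 1 probe except Cybb, Ncf1 and Nox4, which had 2. RNA from 20 whole tracheas was hybridised to one-colour Agilent arrays that cover the mouse genome, 1 array a trachea. The tracheas formed 4 groups of 5: uninjured wild-type C57/Bl6 mice, uninjured Myd88KO mice, and mice of each genotype collected 3 days after 2% polidocanol, a detergent that strips the airway surface, had been given into the airway. The labels give an age of 4 months and a body weight of 25 to 30 g for all mice and do not give the sex, while the study's methods describe male and female mice of 4 to 6 months. Uninjured mice are labelled only as controls, and no instillation of vehicle is described for them. Myd88KO mice lacked the adaptor of Toll-like and interleukin-1 receptors in all cells from birth. They had been crossed for 6 generations to C57/Bl6JOlaHsd and were bred from knockout parents, so they were not littermates of the wild-type mice and may carry other differences between the colonies.

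In phagocytes, gp91phox (Cybb) and p22phox (Cyba) form the membrane-bound core of the NADPH oxidase, which passes electrons to oxygen to make superoxide. The organiser p47phox (Ncf1) and its cytosolic partners, among them p40phox (Ncf4), join this core with a Rac GTPase when the cell is stimulated. Cyba also stabilises Nox4, an oxidase of mesenchymal and vascular cells that makes hydrogen peroxide without these cytosolic subunits. Duox1 and Duox2 sit in the apical membrane of airway and thyroid epithelium, need the maturation factors Duoxa1 and Duoxa2 to leave the endoplasmic reticulum, and in the airway supply hydrogen peroxide to lactoperoxidase (Lpo). Nos2 makes nitric oxide from arginine and is known for its induction in macrophages and airway epithelium by cytokines.

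The promoters of the phagocyte subunits and of the dual oxidases are shown because these genes carry the main results below. A promoter was found by gene symbol in the RefSeq table of GRCm38.p6 for 6 of the 8 genes, and Ncf4 and Nos2 were not among the entries. Each sequence below runs 5′ to 3′ on the gene's own strand from 250 bases before to 50 bases after the annotated start. Capitals mark matches, on either strand, to GAGGAA (the core bound by the myeloid factor PU.1), GGGA and CC set 4 bases apart (letters of an NF-kB site), a pair of TTTC set 2 bases apart (letters of an interferon response element) and TATAAA, and none of the marked matches overlapped another. Cybb lies on the minus strand at chrX:9469275-9469574, Cyba on the minus strand at chr8:122432891-122433190, Ncf1 on the minus strand at chr5:134229576-134229875, Duox1 on the plus strand at chr2:122315422-122315721 and Duox2 on the minus strand at chr2:122298178-122298477.
Cybb: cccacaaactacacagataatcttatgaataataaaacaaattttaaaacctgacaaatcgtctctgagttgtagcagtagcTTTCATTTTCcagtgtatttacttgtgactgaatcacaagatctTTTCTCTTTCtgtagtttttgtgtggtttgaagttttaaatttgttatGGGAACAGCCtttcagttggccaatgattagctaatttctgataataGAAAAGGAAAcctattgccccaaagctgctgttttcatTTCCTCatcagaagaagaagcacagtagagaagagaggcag
Cyba: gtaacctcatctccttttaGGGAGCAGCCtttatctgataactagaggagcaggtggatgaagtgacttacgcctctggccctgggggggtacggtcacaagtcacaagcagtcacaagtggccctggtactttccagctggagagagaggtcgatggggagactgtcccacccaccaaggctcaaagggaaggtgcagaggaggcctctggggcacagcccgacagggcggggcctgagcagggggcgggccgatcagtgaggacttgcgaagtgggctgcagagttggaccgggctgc
Ncf1: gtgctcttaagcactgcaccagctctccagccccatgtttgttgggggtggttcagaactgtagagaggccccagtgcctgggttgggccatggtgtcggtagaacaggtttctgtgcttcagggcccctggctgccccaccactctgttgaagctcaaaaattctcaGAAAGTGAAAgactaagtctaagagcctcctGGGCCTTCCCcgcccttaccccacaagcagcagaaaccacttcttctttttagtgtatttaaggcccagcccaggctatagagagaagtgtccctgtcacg
Duox1: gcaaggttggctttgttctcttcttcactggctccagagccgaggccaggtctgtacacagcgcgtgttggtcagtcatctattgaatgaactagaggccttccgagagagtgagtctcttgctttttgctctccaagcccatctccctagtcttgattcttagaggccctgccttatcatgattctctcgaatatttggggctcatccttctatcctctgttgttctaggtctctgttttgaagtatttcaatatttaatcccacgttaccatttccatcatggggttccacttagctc
Duox2: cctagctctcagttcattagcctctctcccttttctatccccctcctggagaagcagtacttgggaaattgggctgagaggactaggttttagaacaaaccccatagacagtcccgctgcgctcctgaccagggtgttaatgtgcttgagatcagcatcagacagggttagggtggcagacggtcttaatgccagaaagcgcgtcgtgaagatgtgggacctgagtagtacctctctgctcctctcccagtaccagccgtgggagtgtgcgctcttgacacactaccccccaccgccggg

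The Cybb promoter held 1 match to the PU.1 core, 1 to the NF-kB letters and 3 to the interferon response letters. Cyba held 1 match to the NF-kB letters, and Ncf1 held 1 match to the NF-kB letters and 1 to the interferon response letters. The windows of Duox1, Duox2 and Nox4 held none of the 4 motifs, while those of the maturation factors Duoxa1 and Duoxa2 held 1 match to the PU.1 core and 1 to TATAAA, respectively. Of all 32851 promoters of this length in the table, 28.3% held GAGGAA, 20.7% the NF-kB letters, 3.44% the interferon response letters and 13.6% TATAAA. The matches describe these letters and are not evidence of binding.

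Levels are given as log2 intensity relative to the 75th percentile of each array, so that 0 is the level that 3 in 4 probes do not exceed, and a difference of 1 between groups is a 2-fold change of 1 probe. Levels of different probes are not comparable with each other. All 5 contrasts were fitted in limma to the 26064 probes that were well above background on at least 10 arrays, and a probe was called at an adjusted p under 0.01. Of the 11 probes 9 were tested. The dimmer Cybb probe and the Nos2 probe did not pass the filter on dim probes. The share of spots well above background was 57.5% to 67.8% an array, lowest on the array labelled injured Myd88KO replicate 5, which also held 192 outlier spots against 69 to 113 on each other array. Each of the 5 slides held 1 array of each group, all with the same replicate number, and replicates 2, 3 and 4 were scanned on another day than replicates 1 and 5. The Myd88 probe was lower in injured Myd88KO than in injured wild-type tracheas (log2 difference -0.77, limma adjusted p = 0.00824, or -0.71 and 0.0304 without that array), but in uninjured tracheas the genotypes overlapped (1.60 to 2.04 in Myd88KO and 1.94 to 2.28 in wild-type). It was not established here whether the probe reads the exons removed in the knockout.

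Some injured Myd88KO arrays stood apart from the others in the markers of the injury itself. Scgb3a2, a secretory protein of club cells, was at 2.59 to 4.16 in injured wild-type tracheas and at 8.59 to 9.66 in all uninjured tracheas. In injured Myd88KO replicates 1 to 5 it was at 7.94, 3.07, 5.52, 3.21 and 9.10. On the array labelled injured Myd88KO replicate 5, Scgb1a1 and Bpifa1, which are also made by secretory cells, were left out of the fit as outlier spots. Their values there were 7.57 and 9.01, against 6.98 to 8.25 and 8.41 to 9.39 in uninjured tracheas. These secretory markers therefore lay at uninjured levels on this array, against its label. Differences that involve injured Myd88KO tracheas are therefore given with it and, for the members and the lists, also without it. Uninjured wild-type replicate 3 also stood apart, with Krt5 at 7.60 (5.54 to 5.88 in the other 4 arrays of its group) and Krt14 at 5.31 (2.68 to 3.22), both keratins of basal cells.

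In wild-type tracheas, transcripts of the phagocyte oxidase rose 3 days after polidocanol. Ncf4 rose 5.77-fold, Ncf1 6.57-fold and Cyba 2.59-fold, and these were the 3 of the 8 genes called in this contrast. Cybb, the catalytic subunit, was 3.56-fold higher but did not pass the threshold (limma adjusted p = 0.0325). Over all probes tested, 3.24% were called higher in this contrast and 5.26% in either direction.

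Ncf4, the cytosolic subunit that binds phosphoinositides on the phagosome, was at 0.18, -0.56, -0.65, -0.20 and -0.10 in uninjured wild-type replicates 1 to 5 and at 3.13, 1.94, 1.39, 1.62 and 3.23 in injured wild-type replicates 1 to 5. It was at 0.54, -0.51, -0.52, -0.37 and -0.04 in uninjured Myd88KO tracheas and at 0.66, 2.33, 0.12, 2.45 and -0.47 in injured ones. All injured wild-type arrays lay above all uninjured arrays, whereas the injured Myd88KO arrays split, with replicates 2 and 4 high, replicates 3 and 5 within the uninjured range and replicate 1 just above it. The difference with injury was 2.53 in wild-type tracheas (SE 0.49, limma adjusted p = 0.00254, n = 5 a group) and 1.20 in Myd88KO tracheas (SE 0.49, limma adjusted p = 0.184). Without the array labelled injured Myd88KO replicate 5 the latter was 1.57 (limma adjusted p = 0.0334). The wild-type call for Ncf4 held whichever 1 of the 20 arrays was left out, with adjusted p from 0.000715 to 0.00986.

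Ncf1, which carries the signal from protein kinases to the membrane core, was at -3.80, -4.34, -4.02, -4.35 and -3.77 in uninjured wild-type tracheas and at -0.73, -1.33, -2.10, -1.80 and -0.74 in injured ones. In Myd88KO tracheas its brighter probe was at -3.31, -4.41, -4.25, -3.73 and -4.32 without injury and at -4.03, -0.98, -2.91, -0.54 and -5.31 with injury, the last value being not well above background. Again every injured wild-type array exceeded every uninjured one, and Myd88KO replicates 2 and 4 were the highest of their group. The difference was 2.71 in wild-type (SE 0.63, limma adjusted p = 0.00825) and 1.25 in Myd88KO tracheas (SE 0.63, limma adjusted p = 0.288), or 1.89 without the array labelled injured Myd88KO replicate 5 (limma adjusted p = 0.0251). The wild-type call was close to the threshold. It was lost on leaving out any 1 of the 5 uninjured wild-type, 5 injured wild-type or 5 uninjured Myd88KO arrays, or injured Myd88KO replicate 3, with adjusted p up to 0.0236. The call was also lost with the slide as a block (limma adjusted p = 0.0139) and with no filter on dim probes (0.0123). The dimmer Ncf1 probe differed by 2.07 in wild-type (SE 0.52, limma adjusted p = 0.0131) and by 1.51 in Myd88KO tracheas (limma adjusted p = 0.115, or 1.74 and 0.0439 without the array labelled injured Myd88KO replicate 5), so the probes had the same sign.

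Cyba, the membrane partner that Cybb and Nox4 share, was at 1.06, 1.16, 0.73, 1.32 and 0.55 in uninjured wild-type tracheas and at 2.03, 2.92, 1.87, 2.43 and 2.41 in injured ones. In Myd88KO tracheas it was at 0.87, 1.29, 1.28, 0.94 and 0.74 without injury and at 1.23, 2.42, 1.34, 2.46 and 0.45 with injury. The wild-type groups did not overlap, and in Myd88KO tracheas only replicates 2 and 4 reached the injured wild-type range. The difference was 1.37 in wild-type (SE 0.31, limma adjusted p = 0.00675) and 0.56 in Myd88KO tracheas (SE 0.31, limma adjusted p = 0.338), or 0.84 without the array labelled injured Myd88KO replicate 5 (limma adjusted p = 0.0510). Leaving out any uninjured wild-type array, or injured wild-type replicate 1, 2, 4 or 5, ended the wild-type call for Cyba, with adjusted p up to 0.0214, as did testing with no filter on dim probes (0.0106).

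Cybb was at -0.60, -1.63, -1.71, -1.29 and -0.43 in uninjured wild-type tracheas and at 1.56, 0.42, -0.24, -0.18 and 1.93 in injured ones. It was at -0.33, -1.80, -1.75, -1.02 and -0.39 in uninjured Myd88KO tracheas and at 0.01, 1.14, -0.76, 1.55 and -1.54 in injured ones. The wild-type groups did not overlap, and neither did those of Ncf4, Ncf1 and Cyba, while 7.89% of all probes tested lay wholly higher after wild-type injury. The wild-type difference was 1.83 (SE 0.55, limma adjusted p = 0.0325) and the Myd88KO difference 1.13 (SE 0.55, limma adjusted p = 0.261), or 1.54 without the array labelled injured Myd88KO replicate 5 (limma adjusted p = 0.0604). Cybb was higher on the second scan day in both uninjured groups and in injured wild-type tracheas. Within scan days its wild-type difference was 1.54 and 2.26. The dimmer Cybb probe was well above background only after injury, on 3 of 5 arrays of each genotype, and was not tested. Its groups overlapped in both genotypes, and within slides its measured difference with injury ran from 0.01 to 2.88 in wild-type and from -0.24 to 3.80 in Myd88KO tracheas.

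**Figure D1:**
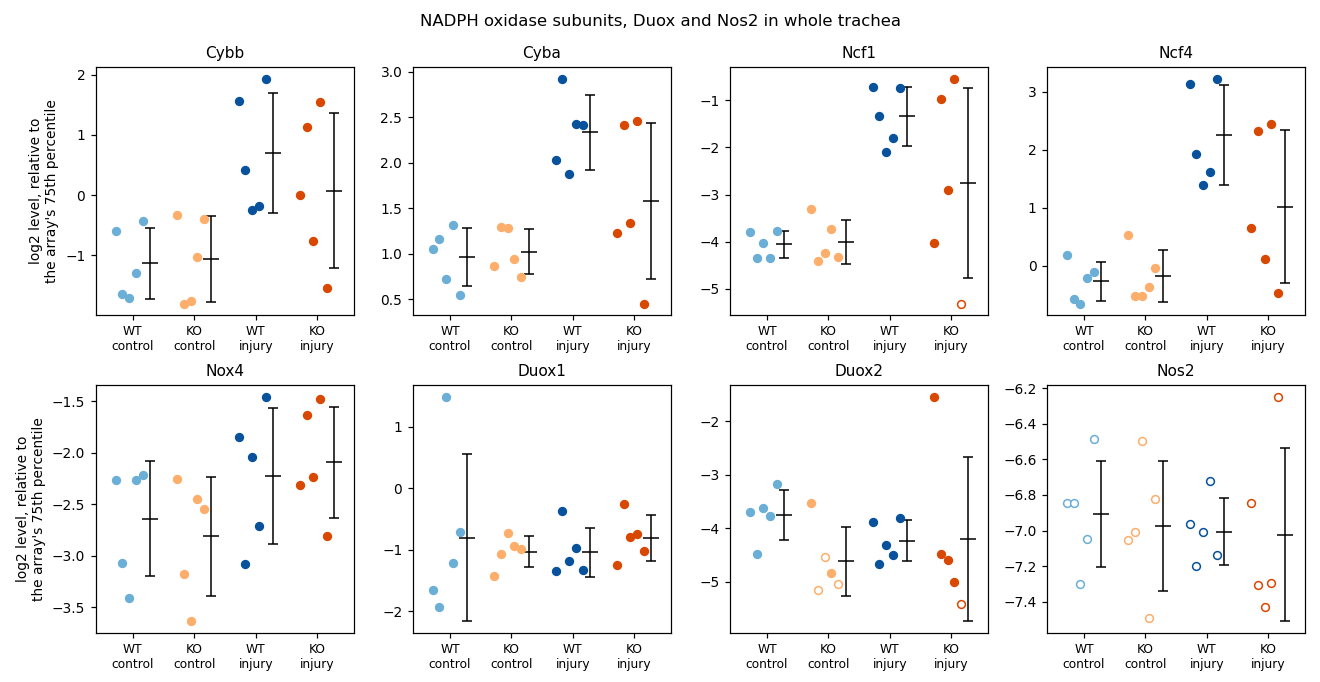
Level of each of the 8 genes on every array (log2 intensity relative to the array's 75th percentile, brightest probe of each gene) in the 4 groups of 5. Points are arrays, open points were not well above background, and bars give the mean ± SD. For Cybb, Cyba, Ncf1 and Ncf4 the injured wild-type points lie above all uninjured wild-type points and the injured Myd88KO points are spread widely, while Nos2 has open points throughout.

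Because each slide held an array of every group, injury differences could also be taken within slides. In wild-type tracheas they were above 0 on 5 of 5 slides for all 4 phagocyte genes, as had to follow from groups without overlap. Slides were not counted in this way over all probes. The wild-type differences were 1.12 to 2.36 for Cybb, 0.98 to 1.87 for Cyba, 1.92 to 3.07 for Ncf1 and 1.82 to 3.33 for Ncf4. In Myd88KO tracheas they ran from -1.15 to 2.93 for Cybb, -0.29 to 1.52 for Cyba and -0.43 to 2.85 for Ncf4, each above 0 on 4 of 5 slides. For Ncf1 they ran from -0.99 to 3.43 and were above 0 on 3 of 5. The values by slide in Myd88KO tracheas thus spanned more than those in wild-type tracheas for each of these genes. By scan day, Ncf4 in Myd88KO tracheas differed by 2.10 on the first day (replicates 2, 3 and 4) and by -0.15 on the second (replicates 1 and 5). The first day was itself uneven, with slide differences of 2.85, 0.64 and 2.82 for replicates 2, 3 and 4.

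**Figure D2:**
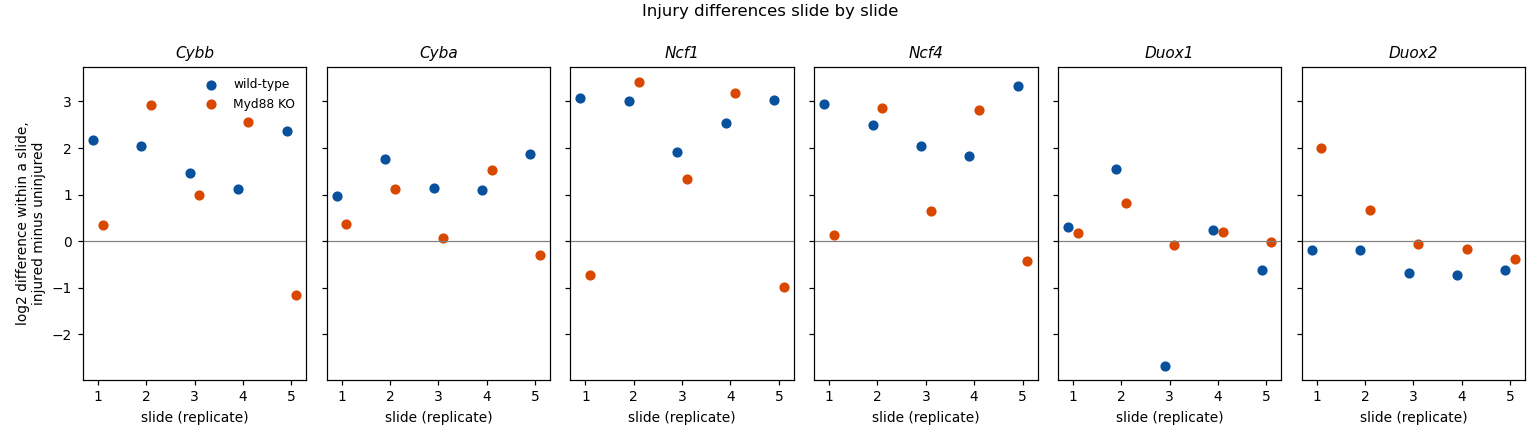
Injury difference (log2, injured minus uninjured) of Cybb, Cyba, Ncf1, Ncf4, Duox1 and Duox2 within each of the 5 slides, for wild-type and Myd88KO tracheas. Each point is 1 slide and thus 1 pair of arrays. The wild-type points of the 4 phagocyte genes all lie above 0, and the wild-type points of Duox2 all lie below 0, from -0.74 to -0.18.

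Partners of the phagocyte oxidase were counted from a list of 8 genes. After wild-type injury 2 of the 8 were called higher and none lower, with a median difference of 0.69 over the list against 7.88e-05 over all probes tested. Rac2, the haematopoietic Rac GTPase of the complex, rose by 2.11 (SE 0.40, limma adjusted p = 0.00221), from -1.19 to -0.06 in uninjured to 0.74 to 2.37 in injured tracheas. Vav1, an exchange factor that loads Rac with GTP, rose by 1.95 (SE 0.37, limma adjusted p = 0.00235), from -2.75 to -2.40 to -1.65 to -0.12. The groups did not overlap for either of these genes, nor for Hvcn1, the voltage-gated proton channel that balances the oxidase's charge. Hvcn1 was at -1.57 to -0.56 in uninjured and at -0.48 to 1.05 in injured wild-type tracheas. Over all probes tested, 3.24% were called higher and 7.89% lay wholly higher. The Hvcn1 difference, 1.34, did not pass the threshold (limma adjusted p = 0.0305). Rac1, Prkcb, Prkcd, Cybc1 (BC017643 on the array) and Mpo were not called either, with differences of 0.26 to 0.77. In Myd88KO tracheas Cybc1 was the only 1 of the 8 that lay wholly higher with injury, at 1.40 to 1.74 against 1.18 to 1.26 without. The share of all probes lying wholly higher in that contrast is not given here, so no result is read from this separation. None of the 8 was called there, with a median difference of 0.30 against -0.07 over all probes. Still none was called without the array labelled injured Myd88KO replicate 5, with medians of 0.52 and -0.08.

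Markers of myeloid cells moved with these genes. Of 14 listed markers, 13 were on the array and 12 were tested. After wild-type injury 7 of the 12 were called higher and 0 lower, with a median difference of 2.52. Over all probes tested, 3.24% were called higher. Cd68, a lysosomal protein of macrophages, rose by 3.27 (limma adjusted p = 0.000907) and Csf3r, the receptor for granulocyte colony-stimulating factor, by 4.05 (limma adjusted p = 0.00380), and Itgb2, Fcer1g, Tyrobp, Adgre1 and Csf1r were the others. The 5 tested but not called were among Ptprc, Itgam, Lyz2, S100a8, S100a9 and Ly6g, and their single differences are not given here. None of the 12 was called in Myd88KO tracheas, where the median difference was 1.17. Csf3r and Itgam were called higher there without the array labelled injured Myd88KO replicate 5, with a median of 1.58. The mean log2 level of the 12 markers was -0.03 to 1.10 in uninjured wild-type, -0.76 to 0.38 in uninjured Myd88KO and 2.12 to 3.74 in injured wild-type tracheas. In injured Myd88KO replicates 1 to 5 it was 0.51, 2.51, 0.22, 2.72 and -0.75, so that the arrays with high Cybb, Cyba, Ncf1 and Ncf4 were also those with high myeloid markers. The summed intensity of the list, in multiples of the 75th percentile, overlapped between groups (307 to 541 in uninjured and 375 to 702 in injured wild-type tracheas, 279 to 481 and 283 to 458 in Myd88KO tracheas). Elane, a neutrophil granule protease, was not tested. More cells of a type and more RNA a cell cannot be told apart in whole tissue, and the part of cell numbers in the oxidase result was not tested.

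**Figure D3:**
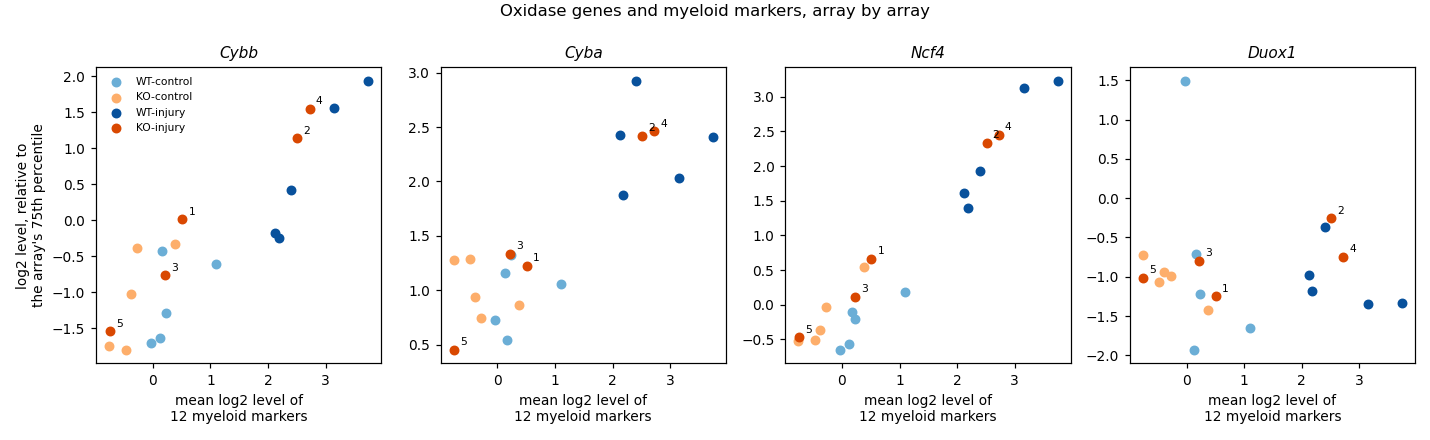
Level of Cybb, Cyba, Ncf4 and Duox1 on each array (vertical axis, log2 relative to the 75th percentile) against the mean log2 level of the 12 myeloid markers tested (horizontal axis, same scale). Injured Myd88KO arrays carry their replicate number. Replicates 2 and 4, at marker means of 2.51 and 2.72, lie among the injured wild-type arrays for the phagocyte genes. Replicates 1, 3 and 5 lie nearer the uninjured arrays, except for the Cybb level of replicate 1. That level, 0.01, is within the injured wild-type range of -0.24 to 1.93.

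Of the 11 markers of airway epithelium, 3 made by secretory cells fell in the same comparison, while the secretory mucin Muc5b did not. After wild-type injury Scgb1a1 was lower by -7.91, Scgb3a2 by -5.77 and Bpifa1 by -2.24, 0 markers were called higher, and the median difference of the list was -0.11. Among the 8 not called, the basal keratin Krt14 differed by 1.14, the luminal keratin Krt8 by 0.83, Krt5 by 0.34, Muc5b by 0.14 and Epcam by 0.10. The Krt14 and Krt5 differences include uninjured wild-type replicate 3, where both were high, and are not given without it. In Myd88KO tracheas 2 markers were called lower (Scgb1a1 by -6.24 and Bpifa1 by -2.36, each from 4 injured arrays since the outlier spots were dropped), and Scgb3a2 was called as well, by -4.20, without the array labelled injured Myd88KO replicate 5. The summed intensity of the 11 markers, with those outlier spots put back, was 1209 to 1850 in uninjured and 276 to 576 in injured wild-type tracheas, and 1186 to 1736 and 425 to 1515 in Myd88KO tracheas. None of the 9 fibroblast and smooth muscle markers, 6 endothelial markers, 5 cartilage markers or 5 adipocyte markers was called after injury in either genotype, with or without that array.

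Nox4 was not called in any contrast. Its brighter probe was at -2.26, -3.07, -3.41, -2.26 and -2.21 in uninjured wild-type tracheas and at -1.85, -3.08, -2.05, -2.71 and -1.46 in injured ones. In Myd88KO tracheas it was at -2.26, -3.17, -3.64, -2.45 and -2.55 without and at -2.32, -1.63, -2.24, -1.48 and -2.81 with injury. The groups overlapped in both genotypes. The injury difference was 0.41 in wild-type (95% interval -0.31 to 1.14, limma adjusted p = 0.485) and 0.72 in Myd88KO tracheas (95% interval -0.01 to 1.45, limma adjusted p = 0.264), or 0.90 without the array labelled injured Myd88KO replicate 5 (limma adjusted p = 0.110). The dimmer Nox4 probe, well above background on 16 arrays, differed by 0.04 and -0.02, and its sign in each genotype changed with the array left out. The interval of the brighter probe includes a doubling of Nox4 in wild-type and in Myd88KO tracheas, so a change of that size is not excluded in either.

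Neither dual oxidase was called after injury in either genotype. Duox1 was read by 10 spots an array, all of them well above background on all 20 arrays, with an SD between spots of 0.025 to 0.110 within an array. It was at -1.66, -1.93, 1.49, -1.22 and -0.71 in uninjured wild-type tracheas and at -1.35, -0.37, -1.18, -0.98 and -1.33 in injured ones. In Myd88KO tracheas it was at -1.43, -1.07, -0.72, -0.94 and -0.996 without injury and at -1.25, -0.25, -0.80, -0.75 and -1.01 with injury. A single array, uninjured wild-type replicate 3, lay more than 2 log2 units above the next of its group, and all 4 groups overlapped. The wild-type injury difference was -0.24 (95% interval -1.16 to 0.68, limma adjusted p = 0.776) with that array and 0.34 (SE 0.26, limma adjusted p = 0.417) without it, so its sign rests on this array. The Myd88KO difference was 0.22 (95% interval -0.70 to 1.14, limma adjusted p = 0.829), or 0.27 without the array labelled injured Myd88KO replicate 5. The high Duox1 array was the one with the highest Krt5 and Krt14 of its group, and their part in its Duox1 level was not tested.

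Duox2 was at -3.70, -4.49, -3.63, -3.76 and -3.17 in uninjured wild-type tracheas and at -3.88, -4.68, -4.32, -4.50 and -3.80 in injured ones, all well above background. In Myd88KO tracheas it was at -3.53, -5.15, -4.54, -4.83 and -5.04 without injury, where 2 of 5 arrays were well above background, and at -1.54, -4.49, -4.59, -5.01 and -5.41 with injury, where 4 of 5 were. Injured Myd88KO replicate 1 was the highest of all 20 arrays, nearly 3 log2 units above the next of its group, and the groups overlapped in both genotypes. The injury difference was -0.49 in wild-type (95% interval -1.57 to 0.60, limma adjusted p = 0.594) and 0.41 in Myd88KO tracheas (95% interval -0.68 to 1.50, limma adjusted p = 0.711). Without injured Myd88KO replicate 1 the latter was -0.26 (limma adjusted p = 0.692), and without replicate 5 it was 0.71 (limma adjusted p = 0.409). Within slides the wild-type difference of Duox2 was below 0 on 5 of 5 slides, from -0.74 to -0.18, though the fit did not call it.

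The thyroid also expresses both dual oxidases, and thyroid transcripts were present in these tracheas. Tg, the thyroid hormone precursor, was at 6.40 to 8.83 on the 20 arrays. None of the 6 thyroid markers tested was called after injury in either genotype, with median differences of -0.22 in wild-type and -1.15 in Myd88KO tracheas (-1.02, and again none called, without the array labelled injured Myd88KO replicate 5), and Slc5a5 was not tested. The summed intensity of the 6 was 94.7 to 357 in uninjured and 125 to 401 in injured wild-type tracheas, and 86.5 to 473 and 96.4 to 218 in Myd88KO tracheas. How much of the Duox signal came from thyroid was not tested.

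Among 8 listed partners of the epithelial oxidases, 6 were tested and 0 were called after injury in either genotype. Nox1 and Nox3 were not well above background on any array. Noxa1, the activator of Nox1, was at -4.85 to -3.54 in uninjured and at -3.62, -0.65, -1.48, -0.46 and -3.56 in injured wild-type tracheas, and the injured arrays of replicates 2, 3 and 4 were the high ones. Its difference was 2.17 in wild-type (SE 0.62, limma adjusted p = 0.0257) and 1.90 in Myd88KO tracheas (limma adjusted p = 0.0949, or 2.34 and 0.0171 without the array labelled injured Myd88KO replicate 5), and neither passed the threshold. Noxo1, Poldip2, Duoxa1, Duoxa2 and Lpo differed by -0.32 to 0.39 after wild-type injury.

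Of the dual oxidase partners, Lpo was called between genotypes. Lpo, which turns the hydrogen peroxide of Duox into an antibacterial oxidant, was at 2.15, 2.68, 1.72, 2.34 and 3.18 in uninjured wild-type and at 0.55, -0.39, -0.01, 0.06 and 1.41 in uninjured Myd88KO tracheas. After injury it was at 2.67, 3.36, 2.73, 3.00 and 1.66 in wild-type and at -0.88, 1.40, 0.49, -0.46 and -1.60 in Myd88KO tracheas. The genotypes did not overlap in either state, and 0.806% of all probes tested lay wholly lower in uninjured Myd88KO than in uninjured wild-type tracheas. Lpo was lower in injured Myd88KO tracheas by -2.89 (SE 0.47, limma adjusted p = 0.00221) and in uninjured ones by -2.09 (SE 0.47, limma adjusted p = 0.0478), of which the first was called. Of all probes tested 0.23% were called lower in injured Myd88KO tracheas. The injured difference was -2.55 without the array labelled injured Myd88KO replicate 5 (limma adjusted p = 0.00670), still called. The call was not met when only the 10 injured arrays were fitted (limma adjusted p = 0.0608).

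Duoxa1 was at 0.13, 0.15, 2.10, 0.26 and 0.78 in uninjured wild-type and at 1.53, 1.31, 1.62, 1.47 and 1.76 in uninjured Myd88KO tracheas, then at 0.17, 0.74, 0.40, 0.22 and 0.29 and at 2.07, 2.00, 1.54, 1.96 and 1.40 after injury. Uninjured wild-type replicate 3, the array with high Duox1, was again the highest, and it alone made the uninjured genotypes overlap. Duoxa1 was higher in injured Myd88KO tracheas by 1.43 (SE 0.28, limma adjusted p = 0.0160, groups not overlapping) and in uninjured ones by 0.85 (SE 0.28, limma adjusted p = 0.391). Without uninjured wild-type replicate 3 these were 1.43 (limma adjusted p = 7.41e-05) and 1.21 (limma adjusted p = 0.00111), both then past the threshold. The injured difference was 1.53 (limma adjusted p = 0.0182) without the array labelled injured Myd88KO replicate 5. A second, dimmer Duoxa1 probe was well above background on 5 arrays and was not tested. Duoxa2, the maturation factor of Duox2 (listed on the array as 9030623N16Rik), was at -0.36, -1.15, 0.40, 0.18 and 0.58 in uninjured wild-type and at -2.62, -0.92, -1.08, -1.18 and -2.54 in uninjured Myd88KO tracheas. After injury it was at -0.81, 1.08, -1.73, 0.19 and -0.46 in wild-type and at -1.95, -2.06, -2.87, -2.10 and -2.84 in Myd88KO tracheas. Its genotype difference was -2.02 after injury (SE 0.46, limma adjusted p = 0.0504, groups not overlapping) and -1.60 without (SE 0.46, limma adjusted p = 0.233), and neither was called. Without the array labelled injured Myd88KO replicate 5 the former was -1.90 (limma adjusted p = 0.143). Of all probes tested, 0.694% lay wholly higher and 1.26% wholly lower in injured Myd88KO than in injured wild-type tracheas.

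**Figure D4:**
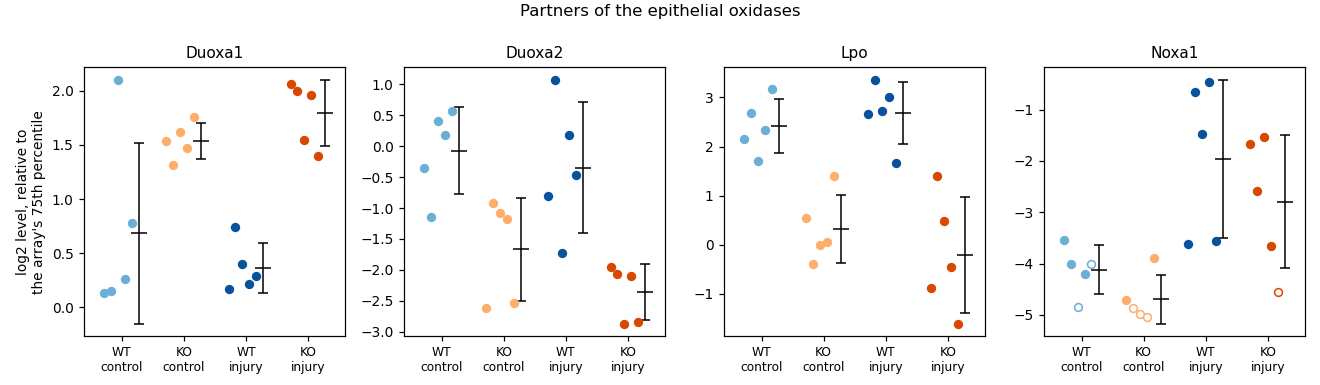
Level of Duoxa1, Duoxa2, Lpo and Noxa1 on every array (log2 relative to the 75th percentile) in the 4 groups of 5. Points are arrays, open points were not well above background, and bars give the mean ± SD. Lpo lies lower and Duoxa1 higher in injured Myd88KO than in injured wild-type tracheas without overlap, and the highest uninjured wild-type point of Duoxa1, at 2.10, is replicate 3.

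Nos2 transcript was not well above background on any of the 20 arrays. Its 10 spots an array were averaged to -6.85, -6.85, -7.30, -7.05 and -6.49 in uninjured wild-type, -7.05, -7.01, -6.49, -7.49 and -6.83 in uninjured Myd88KO, -6.96, -7.20, -7.01, -6.72 and -7.14 in injured wild-type and -6.84, -7.30, -7.43, -7.29 and -6.25 in injured Myd88KO tracheas. All these values lay under the lowest signal that was well above background, which was -5.42 to -4.36 over the arrays, and 3 of the 200 spots were well above background. No difference of Nos2 could be measured at this signal, in either genotype, and no fold change is given. The other genes of the nitric oxide pathway were counted from a list of 11, all tested. Only Ddah1, which breaks down the endogenous inhibitor of nitric oxide synthases, was called after wild-type injury, higher by 0.93 (SE 0.20, limma adjusted p = 0.00506), from -2.92 to -2.08 to -1.82 to -1.20. That call was lost on leaving out any of 6 wild-type arrays (uninjured replicates 1, 4 and 5 or injured replicates 1, 2 and 5, adjusted p up to 0.0161) and with another background correction (0.0280). Irf1, a factor that drives Nos2 in macrophages, differed by 0.56 (limma adjusted p = 0.0243), and Arg1, which competes for arginine, by 2.25 (limma adjusted p = 0.0481). The median difference of the list was 0.35 in wild-type and 0.01 in Myd88KO tracheas, where none was called (0.08, and again none, without the array labelled injured Myd88KO replicate 5).

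Set against each other, the phagocyte subunits and the dual oxidases gave different counts after wild-type injury. Of the 4 phagocyte genes 3 were called higher and all 4 were higher without overlap, with differences of 1.37 to 2.71. Over all probes tested, 3.24% were called higher and 7.89% lay wholly higher. The Ncf1 call was lost in 16 and the Cyba call in 9 of the 20 fits that left out 1 array. Of the 2 dual oxidases 0 were called, with differences of -0.24 for Duox1 and -0.49 for Duox2. Without uninjured wild-type replicate 3 the former was 0.34. The 95% intervals of Ncf4 (1.51 to 3.55), Ncf1 (1.39 to 4.04) and Cyba (0.73 to 2.02) lay above 0, as did that of Cybb (0.69 to 2.97), while those of Duox1 and Duox2 held 0. The difference between the 2 sets of genes was not tested.

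**Figure D5:**
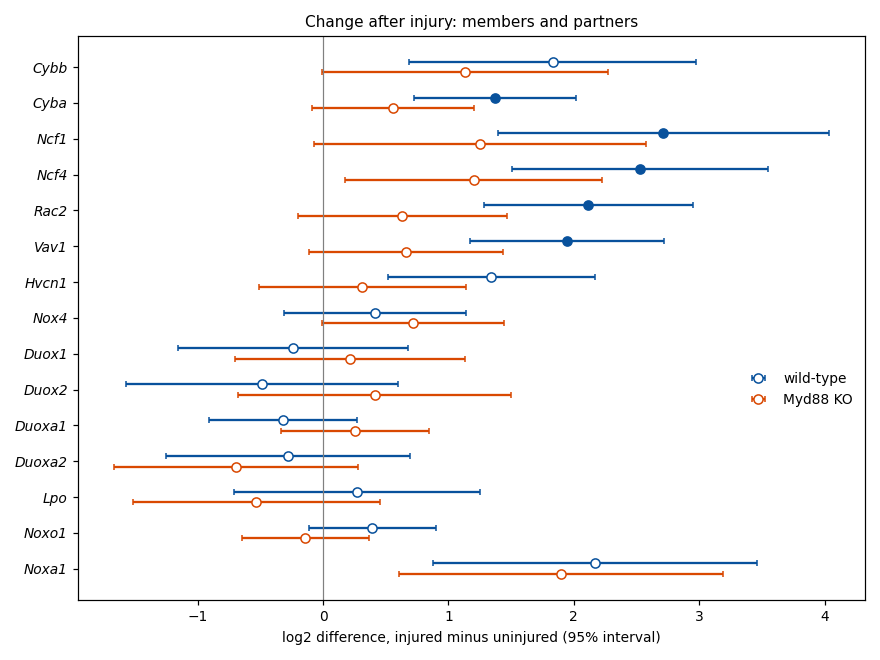
Injury difference (log2, injured minus uninjured) with its 95% interval in wild-type and Myd88KO tracheas for the genes tested and their main partners, 5 arrays a group. Filled symbols passed an adjusted p under 0.01. Filled symbols appear in wild-type tracheas, among them Cyba, Ncf1 and Ncf4, and none appears in Myd88KO tracheas.

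No member was called after injury in Myd88KO tracheas, where 0.376% of all probes (98) were called. Without the array labelled injured Myd88KO replicate 5 still 0 members were called, although 1075 probes were. With arrays weighted by their quality, Ncf1 was called in Myd88KO tracheas (2.17, limma adjusted p = 0.00675), together with 1901 probes in all. A call in wild-type and none in Myd88KO tracheas does not show that the responses differed, and the difference was therefore fitted itself. The injury response of Myd88KO minus that of wild-type tracheas was -0.70 for Cybb (95% interval -2.31 to 0.92, limma adjusted p = 0.765), -0.82 for Cyba (-1.73 to 0.10, 0.523), -1.47 for Ncf1 (-3.34 to 0.40, 0.563) and -1.33 for Ncf4 (-2.78 to 0.12, 0.517). None passed the threshold and each interval held 0. Without the array labelled injured Myd88KO replicate 5 the values were -0.29 for Cybb, -0.54 for Cyba, -0.83 for Ncf1 and -0.96 for Ncf4, with limma adjusted p of 0.587 to 0.897. For Nox4, Duox1 and Duox2 the difference was 0.30, 0.46 and 0.90, with limma adjusted p of 0.852, 0.818 and 0.673, or 0.48, 0.51 and 1.20 without that array. Within slides the difference in response was above 0 on 5 of 5 slides for Duox2, from 0.25 to 2.18, and on 2 of 5 for Duox1. Duox2 was near background, with 2 of 5 uninjured Myd88KO arrays well above it, and such slide counts were not taken over all probes. In this contrast 0% of all probes were called by limma (0 of 26064, with 2703 at an unadjusted p under 0.05, and 1 to 3 probes called with a slide block, a scan day block or array weights).

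Between the genotypes without injury, where 0.384% of all probes were called, no member was called. The difference of Myd88KO from wild-type tracheas was 0.08 for Cybb (95% interval -1.07 to 1.22), 0.06 for Cyba (-0.59 to 0.71), 0.05 for Ncf1 (-1.27 to 1.38) and 0.09 for Ncf4 (-0.94 to 1.11). It was -0.17 for Nox4, -0.23 for Duox1 (0.35 without uninjured wild-type replicate 3) and -0.87 for Duox2 (95% interval -1.96 to 0.22). These intervals still allow a 2-fold difference of Cybb, Ncf1, Ncf4 or Duox2 between the uninjured genotypes, as does that of Duox1 (-1.14 to 0.69). Between injured genotypes, where 0.38% of all probes were called, 0 members were called as well. The differences were -0.62 for Cybb (limma adjusted p = 0.677), -0.76 for Cyba (0.307), -1.41 for Ncf1 (0.358) and -1.24 for Ncf4 (0.289), and 0.13 for Nox4, 0.23 for Duox1 and 0.03 for Duox2. Without the array labelled injured Myd88KO replicate 5 they were -0.22 for Cybb, -0.47 for Cyba, -0.78 for Ncf1 and -0.87 for Ncf4 (limma adjusted p of 0.534 to 0.902), and 0.31 for Nox4, 0.28 for Duox1 and 0.33 for Duox2. Within slides the injured difference of Duox1 was above 0 on 5 of 5 slides, from 0.098 to 0.38, though such counts were not taken over all probes. The sign of the injured comparison changed with the scan day for Cybb, at 0.64 on the first day and -2.51 on the second, and for Ncf1, at 0.27 and -3.93. For Ncf4 it was -0.01 and -3.08 and for Cyba -0.34 and -1.38. The second day held injured Myd88KO replicates 1 and 5, which had Scgb3a2 nearest to its uninjured levels.

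The genes whose levels followed each member most closely over the 20 arrays are given as a description, since all arrays share the same 4 groups. Ncf4 was most like Nckap1l, Pirb and Alox5ap (Pearson r of 0.997, 0.99 and 0.99). Ncf1 was most like Lilra6, Csf2rb and Csf2rb2 (r of 0.98 each), Cybb like Fcgr2b and Bcl2a1c (0.97 each), and Cyba like Selplg, Ctsz and Acp2 (0.97 each). Duox1 was most like Pkp1, Dsp and Trex2 (0.96, 0.95 and 0.94), of which Pkp1 and Dsp encode desmosome proteins. Uninjured wild-type replicate 3 had the highest Duox1 of all arrays, and its Pkp1, Dsp and Trex2 levels, 5.77, 4.94 and 0.49, were also the highest of all. Nox4 had lower likeness (BC010335 0.88, Plod2 0.87 and Arl14ep 0.87), as had Duox2 (Rpl36a 0.84 over only 8 arrays, AK077046 0.76 and Ankrd12 0.74). Rpl36a, AK077046 and Ankrd12 were highest on injured Myd88KO replicate 1, at 6.76, -2.33 and -2.94, where Duox2 was also highest. The likeness of Duox1 and Duox2 may thus rest largely on single arrays, and it was not taken without them.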

How the data were processed

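Arrays were assigned to groups and replicate numbers by the sample titles. The authors deposited the output of Agilent Feature Extraction 9.5.1.1 for each array, in which the intensity of a spot was background-subtracted and spatially detrended, and spots not above background carried a surrogate value. They also deposited a value table, which held the same intensity unscaled (table over scanner values 0.995 to 1.005). The scale and direction of the table were those of the scanner files, and arrays were not centred. The genome build of the probe positions is not given in the sources used here, so no probe position is printed. The labels give intratracheal polidocanol and 600 ng of RNA, the methods oropharyngeal instillation and 2 µg.

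The 1639 control spots and 1960 outlier values were left out, spots of a probe were averaged, and the 75th percentile of each array was subtracted from its log2 intensities, where the methods name no other scaling. Probes were tested in limma 3.58.1 (R 4.3.3, statmod 1.5.0) if well above background on at least 10 of 20 arrays, after the methods' exclusion of transcripts present in under 50% of samples. All 20 arrays were fitted together with 1 coefficient a group, and p values were Benjamini-Hochberg adjusted within each contrast. On simulated data for the wild-type injury contrast (26064 probes, 50 changed at each size), 36% of changes of 1 log2 unit, 60% of 1.5, 84% of 2 and 96% of 3 were recovered, with 4 false calls. The simulated noise was normal and independent between arrays, with the same SD in all groups and no slide or scan day effect. The real arrays differ in these respects, so the shares may not hold for them. The number of arrays, 5 a group, limits the precision. Arrays of 1 group correlated at 0.925 to 0.990 and none were identical.

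The text names all 8 members with every probe, genes of the partner and pathway lists that were called or that a member needs, Myd88, and the 3 genes most correlated with each member. A gene that these rules would name is not reported here. In counts the brightest probe stands for a gene. The members and lists were chosen with earlier results of these data known. Array names were updated through RefSeq (the accession matched for 22951 probes, the present symbol for 6659 and a former symbol for 3109), and 8455 probes kept the array name. Alternatives were the normalisation, background correction, filter, outlier spots, value table, slide and scan day as blocks, the groups fitted, array weights, the methods' one-way test, the threshold, each array left out, and, chosen after seeing the data, uninjured wild-type replicate 3 and injured Myd88KO replicate 5 left out together.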

Additional observations from a re-analysis of the deposited data

Results flagged for a closer look

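Each group of 5 arrays was searched, for each of the 11 probes, for a single array far from the others, and 3 of the 44 sets held one, where chance gives about 1 in 20. The dimmer Ncf1 probe was at -3.17 in uninjured wild-type replicate 1, with the nearest array of that group at -3.95. The dimmer Nox4 probe was at -5.23 in uninjured Myd88KO replicate 3, with the nearest at -4.17. Duox2 was at -1.54 in injured Myd88KO replicate 1, with the nearest at -4.49.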

How the results depend on the processing

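Ncf4 was called after wild-type injury under every alternative run (adjusted p 0.000667 to 0.00986). The number of members called there, 3, was 1 (Ncf4) with no filter on dim probes, 4 at an adjusted p under 0.05, and 1 to 3 on leaving out single arrays, with 1 on leaving out any uninjured wild-type array or injured wild-type replicate 1, 2, 4 or 5. Without the filter Cyba had an adjusted p of 0.0106 and Ncf1 of 0.0123. In Myd88KO tracheas the count of 0 became 1 (Ncf1) with array weights. Same-numbered arrays share a slide, but the numbers could not be shown to pair the mice. Deviations from the group means correlated at -0.26 to 0.48 between same-numbered arrays (median 0.24, 23 of 30 pairs over 0.1). For different numbers the median was -0.08, with 35 of 120 pairs over 0.1. Same-numbered arrays were thus more alike, which the main fit does not take into account. With the replicate number as a block, 2 members were called after wild-type injury (Cyba and Ncf4, with Ncf1 at an adjusted p of 0.0139), 0 in each of the other contrasts, and 1548 probes in place of 1372. Probes called in Myd88KO tracheas, 98, were 1901 with array weights, 1229 without both doubted arrays, 361 with scan day and 0 when only the groups compared were fitted or by the methods' one-way test. In wild-type tracheas they were 2598 with array weights and 2106 with scan day. The methods' one-way test called 1 of the 8 phagocyte partners in place of 2 (Rac2 at 0.0123), and gave Lpo 0.209 between injured genotypes. Signs changed only for differences that were not called. With both doubted arrays left out they were -0.15 for the dimmer Nox4 probe and 0.34 for Duox1 after wild-type injury, 0.049 for the dimmer Nox4 probe after Myd88KO injury, -0.067 for Cybb, -0.0080 for Ncf4 and 0.35 for Duox1 between uninjured genotypes, and 0.20 for the dimmer Nox4 probe and -0.068 for Duox1 in the difference of responses. With array weights they were 0.13 for the dimmer Nox4 probe after Myd88KO injury, -0.12 for Cybb, -0.064 for Ncf4 and 0.081 for Duox1 between uninjured genotypes, -0.38 for Duox2 between injured genotypes and 0.000399 for the dimmer Ncf1 probe in the difference of responses. The dimmer Nox4 probe was at -0.0051 after wild-type injury with another background correction and at 0.088 after Myd88KO injury with quantile normalisation, and had no value under the stricter filter. Leaving out single arrays gave, after wild-type injury, -0.21 to 0.31 for the dimmer Nox4 probe and -0.52 to 0.34 for Duox1; after Myd88KO injury, -0.28 to 0.081 for the dimmer Nox4 probe and -0.26 to 0.71 for Duox2. Between uninjured genotypes it gave -0.11 to 0.26 for Cybb, -0.042 to 0.15 for Cyba, -0.12 to 0.15 for Ncf1, -0.61 to 0.14 for its dimmer probe, -0.093 to 0.20 for Ncf4, -0.36 to 0.036 for Nox4, -0.33 to 0.12 for its dimmer probe and -0.51 to 0.35 for Duox1. Between injured genotypes it gave -0.080 to 0.33 for Nox4, -0.47 to 0.052 for its dimmer probe and -0.64 to 0.33 for Duox2, and in the difference of responses -0.32 to 0.20 for the dimmer Nox4 probe and -0.12 to 0.74 for Duox1. Without the filter the median of all wild-type differences was -0.10. The causes of these changes were not tested, and signal near background limits Nos2, Duox2 and the dimmer probes.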
